A study of Mus musculus with 24 samples.

Results

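The genes described here are 10 signals and receptors by which lymphocytes are drawn into tissue: the chemokines Cxcl9, Cxcl10, Cxcl13, Ccl5, Ccl19 and Cxcl12, the chemokine receptors Cxcr3, Cxcr5 and Ccr7, and the B cell survival cytokine Tnfsf13b (BAFF). They were picked by symbol out of 54532 genes listed for tumors and 35275 listed for cultured cells. The list was chosen by readouts of these same libraries, among them the higher Cxcl9 level in BALB/c than in SCID-beige hosts, so the host differences of the 10 genes are a description and carry no test. Differences between the tumor lines were tested gene by gene, although the list was chosen with earlier results of these data known.

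All samples derive from D2 mammary cells, which arose from hyperplastic alveolar nodules of BALB/c mice: D2A1, which grows readily, and D2.1, which passes through a dormant phase. Each line was sequenced in culture (3 replicates) and as whole tumors in the mammary fat pad of female mice 8 to 12 weeks old, 4 tumors per line in BALB/c hosts (BALB/cAnNTac) and 5 per line in SCID-beige hosts. SCID-beige mice carry the Prkdc scid and Lyst bg alleles, lack T and B cells and have defective NK cells, so they keep macrophages, dendritic cells and stroma. Every tumor started from 1000000 cells, was taken at about 500 mm3 and came from 1 animal, while no source says that the culture replicates were grown separately, so their p-values may measure technical spread.

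Chemokines guide leukocytes through receptors on the cell surface. Cxcl9 and Cxcl10 are induced by interferon-gamma and bind Cxcr3 on activated T cells and NK cells. Cxcl13 binds Cxcr5 on B cells and follicular helper T cells and organises B cell follicles, Ccl19 brings Ccr7-bearing naive T cells and mature dendritic cells into lymph nodes, Ccl5 recruits T cells and monocytes, and Cxcl12 from stroma retains Cxcr4-bearing cells.

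Library totals were 13566949 to 18355153 counts in tumors and 16837260 to 24818234 in culture, and levels are given as CPM (counts scaled by library total) after TMM scaling. A floor of 3 counts equals 0.163 to 0.221 CPM in a tumor and 0.121 to 0.178 CPM in culture. Tumors and cultures came in separate tables, so their levels are set side by side without a test. In whole tumors, fewer cells of a type and less RNA per cell cannot be told apart. T cell markers (7 genes) summed to 66.9 to 181 CPM in D2.1 tumors of BALB/c hosts, 6.31 to 21.5 in D2A1 tumors of BALB/c hosts, 8.23 to 20.6 and 1.07 to 4.03 in D2.1 and D2A1 tumors of SCID-beige hosts, and at most 0.266 in culture. Replicate 4 of the D2.1 tumors in BALB/c mice stands apart, with lymph node stroma and vessel markers at 75.4 CPM and skin keratinocyte markers at 121.5 CPM, and replicate 1 of that group holds milk protein transcripts at 391 CPM and lymph node markers at 9.74 CPM. The line and host differences of this group without both tumors are given at Cxcl13, Cxcr5 and Cxcl12 and, for the other members, after the counts over all members.

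Cxcl9 (chromosome 5, 92321347 to 92328079, minus strand, GRCm38) was high in every BALB/c tumor of either line and low in every SCID-beige tumor. D2A1 tumors held 91.3, 42.6, 33.6 and 103 CPM in BALB/c hosts and 3.99, 4.72, 5.44, 3.46 and 3.47 CPM in SCID-beige hosts. D2.1 tumors held 53.9, 30.7, 56.3 and 87.7 CPM in BALB/c hosts and 8.53, 8.85, 7.25, 12.9 and 10.1 CPM in SCID-beige hosts. The hosts did not overlap in either line, and the fitted log2 difference was 4.01 (standard error 0.35) in D2A1 and 2.61 (standard error 0.29) in D2.1 tumors. Cultured D2A1 cells had 0 counts in all 3 libraries, and cultured D2.1 cells had 6, 14 and 12 counts, at least 3.02-fold above the D2A1 floor of 3 counts a library. These culture levels, 0.326 to 0.643 CPM in D2.1, were below those of every tumor.

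Between the lines, Cxcl9 passed the test in SCID-beige hosts and did not in BALB/c hosts. Among SCID-beige tumors, Cxcl9 was higher in D2.1 than in D2A1 by 1.18 on the log2 scale (standard error 0.25, edgeR adjusted p = 0.0028), and the 5 tumors of each line did not overlap. Among BALB/c tumors the line difference was -0.24 (standard error 0.40, edgeR adjusted p = 0.69), which was within the spread between tumors.

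Cxcl10 (chromosome 5, 92346638 to 92348889, minus strand), the neighbour of Cxcl9 and a ligand of the same receptor, was present everywhere, cultured cells included. BALB/c tumors held 44.7, 53.1, 53.1 and 68.5 CPM in D2.1 and 61.4, 49.7, 41.6 and 58.0 CPM in D2A1. SCID-beige tumors held 32.2, 39.3, 27.6, 91.0 and 34.8 CPM in D2.1 and 17.9, 41.9, 31.8, 17.7 and 18.7 CPM in D2A1. The hosts overlapped in both lines, with log2 differences of 0.31 (standard error 0.32) in D2.1 and 1.04 (standard error 0.27) in D2A1, smaller than those of Cxcl9. Cultured D2.1 cells held 46.3, 35.1 and 20.7 CPM against 10.6, 10.9 and 15.8 CPM in D2A1, a log2 difference of 1.45 (standard error 0.29, edgeR adjusted p = 0.0039). Among SCID-beige tumors the line difference of Cxcl10 was 0.81 (standard error 0.35, edgeR adjusted p = 0.088). It passed the threshold in 1 fit of all tumors (adjusted p = 0.045 by edgeR) and without replicate 2 of the D2A1 tumors (1.03, edgeR adjusted p = 0.043), and was 0.34 without replicate 4 of the D2.1 tumors (edgeR adjusted p = 0.37). Art3 lies across Cxcl10 on the opposite strand and shares 133 exon bases with it. The strand setting of the counting is not given in the sources used here, and Art3 had 0 to 3 counts in culture and 3 to 162 in tumors.

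**Figure D1:**
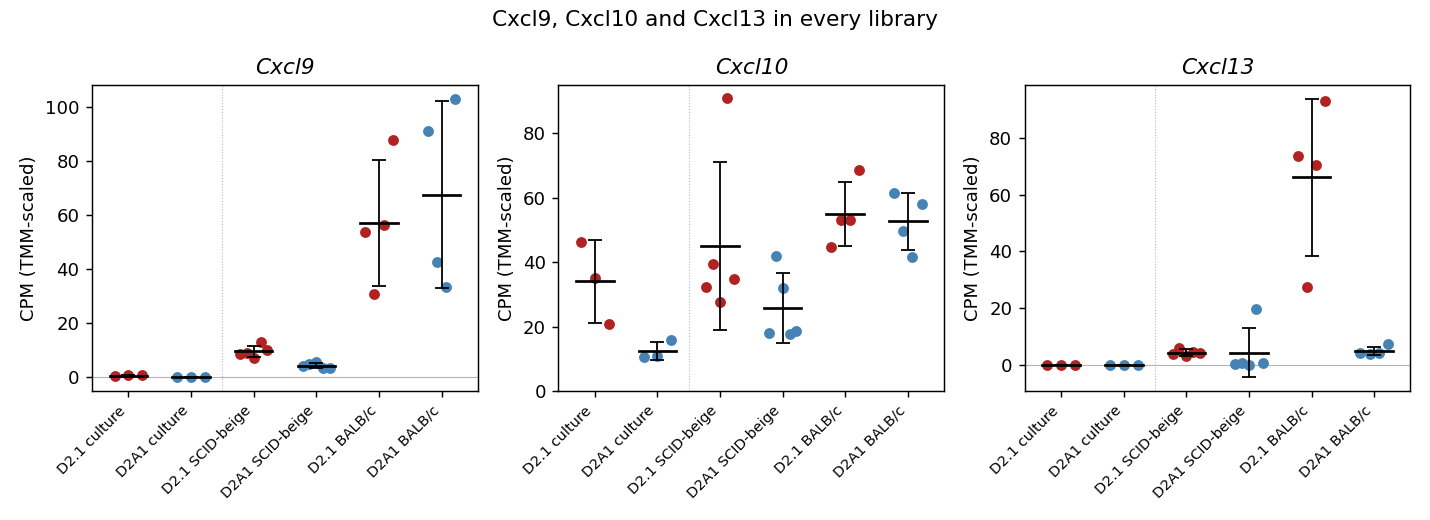
Cxcl9, Cxcl10 and Cxcl13 in CPM in each of the 24 libraries, by group, with D2.1 in red, D2A1 in blue, the mean as a black line and the SD as an error bar. Cxcl9 separates the hosts in both lines, Cxcl10 is also present in culture, and Cxcl13 is above 27 CPM only in the 4 D2.1 tumors of BALB/c hosts.

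Per unit of gene length, the balance of both Cxcr3 ligands differed between hosts. The ratio of Cxcl9 to Cxcl10 FPKM (fragments scaled by gene length and library total) ran from 0.446 to 0.986 in D2.1 and from 0.621 to 1.37 in D2A1 tumors of BALB/c hosts. It ran from 0.11 to 0.223 and from 0.0867 to 0.171 in the SCID-beige tumors of those lines, so the hosts did not overlap. This is a description, since the host contrast of Cxcl9 chose the genes.

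**Figure D2:**
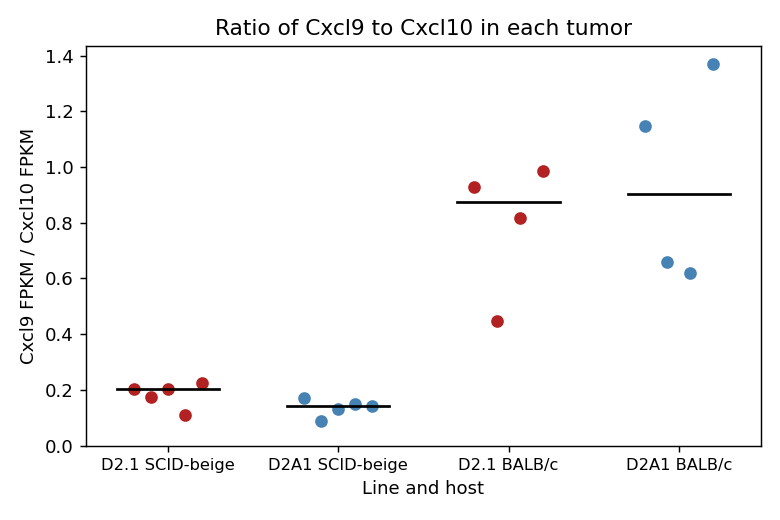
Ratio of Cxcl9 FPKM to Cxcl10 FPKM in each of the 18 tumors by line and host, with the group median as a black line. Every BALB/c tumor lies at or above 0.446 and every SCID-beige tumor at or below 0.223.

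The promoters of Cxcl9, Cxcl10 and Cxcl13 are shown because these genes of chromosome 5 differed in the groups in which they were high. Each run gives the 250 bases before the RefSeq start on the GRCm38.p6 build, read 5′ to 3′ on the strand of the gene, with matches in capitals. Letter patterns were searched on both strands: the interferon response element GAAANNGAAA (in 2.98% of 32536 distinct promoter windows of this length), the STAT site TTCNNNGAA (7.04%), the NF-kB motif (3.92%) and the TATA box TATAAA (12.3%).
Cxcl9, chr5:92328080-92328329, minus strand: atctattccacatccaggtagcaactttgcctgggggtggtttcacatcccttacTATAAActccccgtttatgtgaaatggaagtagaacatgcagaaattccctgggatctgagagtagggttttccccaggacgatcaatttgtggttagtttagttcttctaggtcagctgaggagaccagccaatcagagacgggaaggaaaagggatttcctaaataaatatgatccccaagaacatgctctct
Cxcl10, chr5:92348890-92349139, minus strand: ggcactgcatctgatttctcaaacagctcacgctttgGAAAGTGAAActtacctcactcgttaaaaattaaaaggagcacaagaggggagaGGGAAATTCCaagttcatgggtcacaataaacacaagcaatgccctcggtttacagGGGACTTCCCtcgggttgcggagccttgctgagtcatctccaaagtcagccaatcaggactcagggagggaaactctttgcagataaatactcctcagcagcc
Cxcl13, chr5:95956689-95956938, plus strand: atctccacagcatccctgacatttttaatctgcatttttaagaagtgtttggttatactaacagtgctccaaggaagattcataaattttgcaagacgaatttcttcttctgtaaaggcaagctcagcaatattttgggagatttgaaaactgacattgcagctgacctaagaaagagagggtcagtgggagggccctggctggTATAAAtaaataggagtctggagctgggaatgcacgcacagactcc
The Cxcl10 window holds 1 interferon response element (bases -213 to -204 before the start) and 2 NF-kB matches (-159 to -150 and -103 to -94), and no match overlaps another. Cxcl9 and Cxcl13 each hold only a TATAAA, at -195 to -190 and at -46 to -41. No match says only that these letters are not in the window.

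Cxcl13 (chromosome 5, 95956951 to 95961068, plus strand), the B cell follicle chemokine, was high where D2.1 cells grew in BALB/c mice and low elsewhere, with 1 exception. These 4 tumors held 73.7, 27.3, 70.7 and 93.0 CPM, whereas D2A1 tumors in BALB/c mice held 4.11, 3.65, 4.22 and 7.10 CPM. D2.1 tumors in SCID-beige mice held 3.56, 5.98, 3.11, 4.47 and 3.97 CPM, and D2A1 tumors there 0.138, 0.625, 0, 19.5 and 0.504 CPM. No cultured library had a Cxcl13 count, which allows up to 0.178 CPM in the shallowest of them. In BALB/c hosts, Cxcl13 was higher in D2.1 than in D2A1 tumors by 3.80 on the log2 scale (standard error 0.39, edgeR adjusted p = 5.5e-05), and by 3.33 without replicates 1 and 4 (standard error 0.41, edgeR adjusted p = 0.00092). In SCID-beige hosts the line difference was 0.01 (standard error 1.08, edgeR adjusted p = 0.997), a value set by replicate 4 of the D2A1 tumors. Without that tumor, the fitted difference was 3.69 (standard error 0.68), higher in D2.1. Of 10 fits that each left out 1 tumor, this was the only fit that called Cxcl13, and it is singled out after its value was seen. The rest of that D2A1 group had 2, 9, 0 and 8 counts, so Cxcl13 then passed the filter on low counts through the D2.1 tumors. The value is a description and no p is given for it.

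Between hosts, Cxcl13 was higher in the BALB/c group of D2.1 tumors by 4.001 (standard error 0.34), with no overlap. In D2A1 tumors the host difference was 0.19 (standard error 1.18) with all tumors and 3.87 without replicate 4 of the SCID-beige group. The same D2A1 tumor that held 19.5 CPM of Cxcl13 had 0.741 CPM of B cell markers and 0.247 CPM of lymph node markers in sum. The other 4 D2A1 tumors in SCID-beige mice held 0.315 to 1.03 and 0 to 0.139 CPM of these marker sets, so this tumor stood apart in Cxcl13 and not in B cell markers.

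Cxcr5 (chromosome 9, 44511787 to 44561877, minus strand), the receptor of Cxcl13, was near the floor in most tumors. D2.1 tumors in BALB/c mice held 74, 13, 63 and 94 counts (3.96, 0.783, 3.65 and 6.03 CPM). The other tumors had 1 to 11 counts each. In BALB/c hosts Cxcr5 was higher in D2.1 than in D2A1 tumors by 3.01 (standard error 0.59, edgeR adjusted p = 0.0033), and by 2.28 without replicates 1 and 4 (standard error 0.67, edgeR adjusted p = 0.043). The D2A1 tumors there had 8, 8, 8 and 6 counts, so Cxcr5 passed the filter on low counts through the D2.1 tumors alone. That limits both p-values, and the size of the difference is uncertain. The SCID-beige tumors were too low to test. Cultured cells had 24 to 77 counts of Cxcr5, higher in D2.1 by 0.98 (standard error 0.33, edgeR adjusted p = 0.036), a call that ended without replicate 1 or 2 of either line (edgeR adjusted p between 0.11 and 0.13). Cxcr5 shares 110 exon bases with Bcl9l on the other strand, and Bcl9l had 1459 to 3470 counts in tumors. In culture Bcl9l had 1337, 1438 and 1852 counts in D2A1 and 2722, 3714 and 4224 in D2.1, so it was also higher in D2.1. Low Cxcr5 counts, and the Cxcr5 line difference in culture, cannot be told apart from reads of Bcl9l where strand was not used.

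B cell markers, 7 genes that include Cd79b of the B cell receptor complex and the transcription factor Pax5, were also highest in the D2.1 tumors of BALB/c hosts. Cd79b had 197, 97, 165 and 429 counts there and 2 to 12 in D2A1 tumors of BALB/c hosts. The sum of the 7 markers in D2.1 tumors of BALB/c hosts was 38.9, 9.76, 35.7 and 106.2 CPM, against 0.433 to 1.51 in D2A1 tumors of BALB/c hosts, 2.62 to 7.67 in D2.1 and 0.315 to 1.03 in D2A1 tumors of SCID-beige hosts. Lymph node stroma and vessel markers, led by the endothelial ligand Glycam1 with 927 counts in replicate 4 and 81 in replicate 1, summed to 9.74, 0.964, 1.22 and 75.4 CPM in the same 4 tumors. Elsewhere they summed to at most 3.64 CPM, and Ccl21a, the chemokine of lymph node stroma, was listed at 0 in all 18 tumors. Replicate 3 held Cxcl13 at 70.7 CPM and B cell markers at 35.7 CPM with lymph node markers at 1.22 CPM. The part of lymph node tissue in replicates 1 and 4 was not tested.

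**Figure D3:**
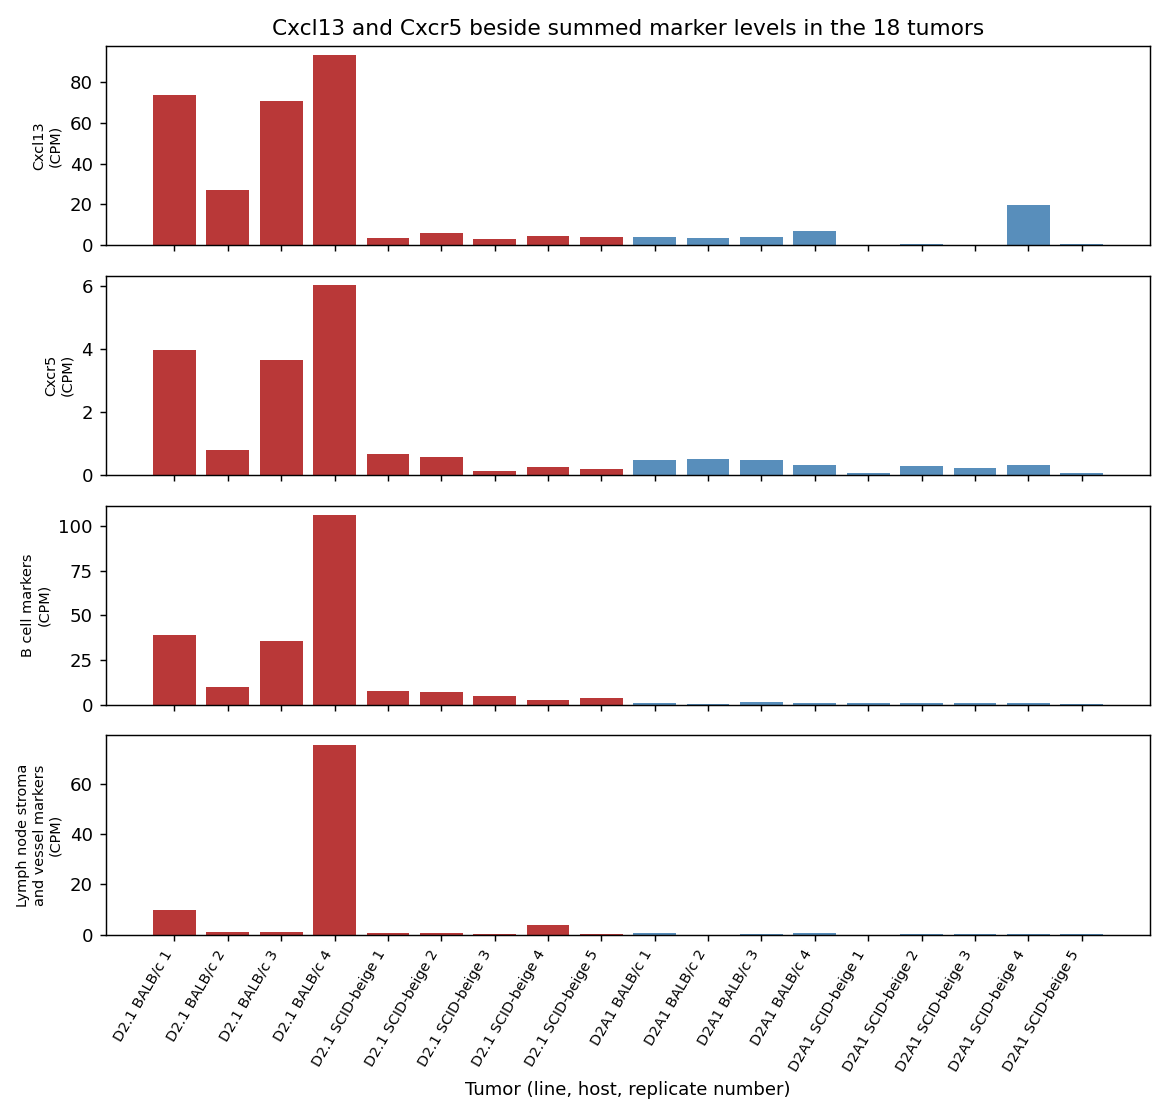
Cxcl13, Cxcr5, the summed B cell markers and the summed lymph node stroma and vessel markers as bars in CPM for each of the 18 tumors, D2.1 in red and D2A1 in blue. The top panels and the B cell markers are highest in D2.1 tumors of BALB/c hosts, the lymph node markers reach 75.4 CPM in 1 of them, and the D2A1 tumor with 19.5 CPM of Cxcl13 holds 0.741 CPM of B cell and 0.247 CPM of lymph node markers.

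Cxcr3 (chromosome X, 101731535 to 101734269, minus strand), the receptor of Cxcl9 and Cxcl10, was higher in D2.1 than in D2A1 tumors of both hosts. D2.1 tumors held 7.87, 9.22, 15.0 and 18.4 CPM in BALB/c hosts and 3.50, 5.28, 1.21, 1.61 and 5.79 CPM in SCID-beige hosts. D2A1 tumors held 0.869, 0.557, 0.543 and 1.55 CPM in BALB/c hosts and 0.963, 0.139, 0.279, 0.124 and 0.756 CPM in SCID-beige hosts. The lines did not overlap in either host. Cxcr3 was higher in D2.1 by 3.83 in BALB/c hosts (standard error 0.44, edgeR adjusted p = 0.00013) and by 2.92 in SCID-beige hosts (standard error 0.65, edgeR adjusted p = 0.0036). D2A1 tumors had 15, 9, 9 and 28 counts in BALB/c hosts. In SCID-beige hosts they had 14, 2, 4, 2 and 12 counts, some below the floor of 3. Cxcr3 thus passed the filter on low counts in both hosts through the D2.1 tumors, which limits these p-values. In BALB/c hosts the Cxcr3 difference stood beside Cxcl9 and Cxcl10 levels that did not pass the test between the lines. Between hosts the difference was 1.89 (standard error 0.46) in D2.1 tumors without overlap and 0.96 (standard error 0.65) in D2A1 tumors with overlap, and no cultured library had a count.

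In SCID-beige hosts the Cxcr3 of D2.1 tumors came beside NK cell markers, while transcripts of the T cell receptor complex were few. Of that complex, Cd3d had 0 to 7, Cd3e 0 to 7 and Cd3g 3 to 32 counts in these 5 tumors, against at least 85 counts of each in every D2.1 tumor of BALB/c mice. D2A1 tumors of SCID-beige mice had 0 to 1, 0 to 4 and 0 counts of these chains, so Cd3g was higher in D2.1 there without overlap, at a level too low to test. Ncr1, the activating NK cell receptor, had 72 to 171 counts in the same 5 tumors and 0 to 9 in D2A1 tumors of SCID-beige mice. The 6 NK cell markers summed to 18.3 to 55.0 CPM in D2.1 and 0.865 to 2.48 CPM in D2A1 tumors of SCID-beige hosts. In BALB/c hosts they summed to 60.6 to 84.3 CPM in D2.1 and 0.603 to 7.99 CPM in D2A1 tumors. Of the T cell markers, Cd4 had 66 to 207 counts and Cd2 25 to 132 in D2.1 tumors of SCID-beige mice, against 7 to 37 and 2 to 10 in D2A1 tumors. The NK marker Klrb1c was also read in cultured D2.1 cells at 4.20 ± 0.952 CPM (SD, n = 3). Which cells carried Cxcr3 was not tested.

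Ccl5 (chromosome 11, 83525778 to 83530518, minus strand), made by T and NK cells and by stimulated epithelium, was higher in D2.1 in culture and in both hosts. Cultured D2.1 cells held 17.4, 9.33 and 4.23 CPM against 1.33, 1.53 and 0.692 CPM in D2A1, a log2 difference of 3.12 (standard error 0.54, edgeR adjusted p = 0.0017). Tumors in SCID-beige mice held 30.7, 38.2, 16.0, 41.0 and 19.6 CPM in D2.1 against 11.2, 10.9, 8.64, 9.33 and 4.79 CPM in D2A1. Tumors in BALB/c mice held 34.9, 42.7, 74.3 and 64.8 CPM in D2.1 against 8.52, 4.15, 10.0 and 14.5 CPM in D2A1. No line comparison overlapped, with log2 differences of 1.69 (standard error 0.30, edgeR adjusted p = 0.00076) in SCID-beige and 2.54 (standard error 0.38, edgeR adjusted p = 0.0006) in BALB/c hosts. The host differences were small beside these, 0.92 (standard error 0.31) in D2.1 and 0.06 (standard error 0.35) in D2A1 tumors, both with overlap.

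Ccr7 (chromosome 11, 99144196 to 99155077, minus strand), which takes naive T cells and mature dendritic cells to lymph nodes, had 0 to 4 counts in culture and was read in every tumor. D2.1 tumors held 23.9, 11.3, 21.2 and 35.8 CPM in BALB/c and 11.6, 12.2, 5.52, 6.80 and 9.25 CPM in SCID-beige hosts. D2A1 tumors held 1.98 to 4.16 CPM in BALB/c and 2.21 to 3.92 CPM in SCID-beige hosts. The lines were apart in both hosts, by 3.05 (standard error 0.39, edgeR adjusted p = 0.00023) in BALB/c mice and 1.69 (standard error 0.30, edgeR adjusted p = 0.00081) in SCID-beige mice. The host difference was 1.38 (standard error 0.34) in D2.1 and -0.0042 (standard error 0.32) in D2A1 tumors. Dendritic cell markers were higher in D2.1 tumors as well, 6 of 7 in BALB/c hosts and 6 of 7 in SCID-beige hosts with 1 lower. Of all genes tested, 32.6% and 32.1% were called in these hosts. The lower marker was Zbtb46, at 1.97 to 3.53 CPM in D2.1 and 4.63 to 7.56 CPM in D2A1 tumors of SCID-beige hosts. Cultured cells also held this list at 298 to 879 CPM in sum. Flt3, the growth factor receptor of dendritic cell precursors, was higher by 2.80 and 3.64 on the log2 scale in BALB/c and SCID-beige hosts. D2A1 tumors had only 2 to 53 and 3 to 11 counts of Flt3 there.

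Ccl19 (chromosome 4, 42754525 to 42756577, minus strand), a ligand of Ccr7, was listed at 0 in all 24 libraries, including the tumors with lymph node markers. Near-identical copies of Ccl19 and Ccl21a lie on the same chromosome, and how reads that fit several copies were counted is not given in the sources used here. The pseudogene Ccl19-ps1 had 17 counts over the 18 tumors, and the other 5 copies examined beside Ccl21a had 0. The level of Ccl19 is therefore uncertain here.

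**Figure D4:**
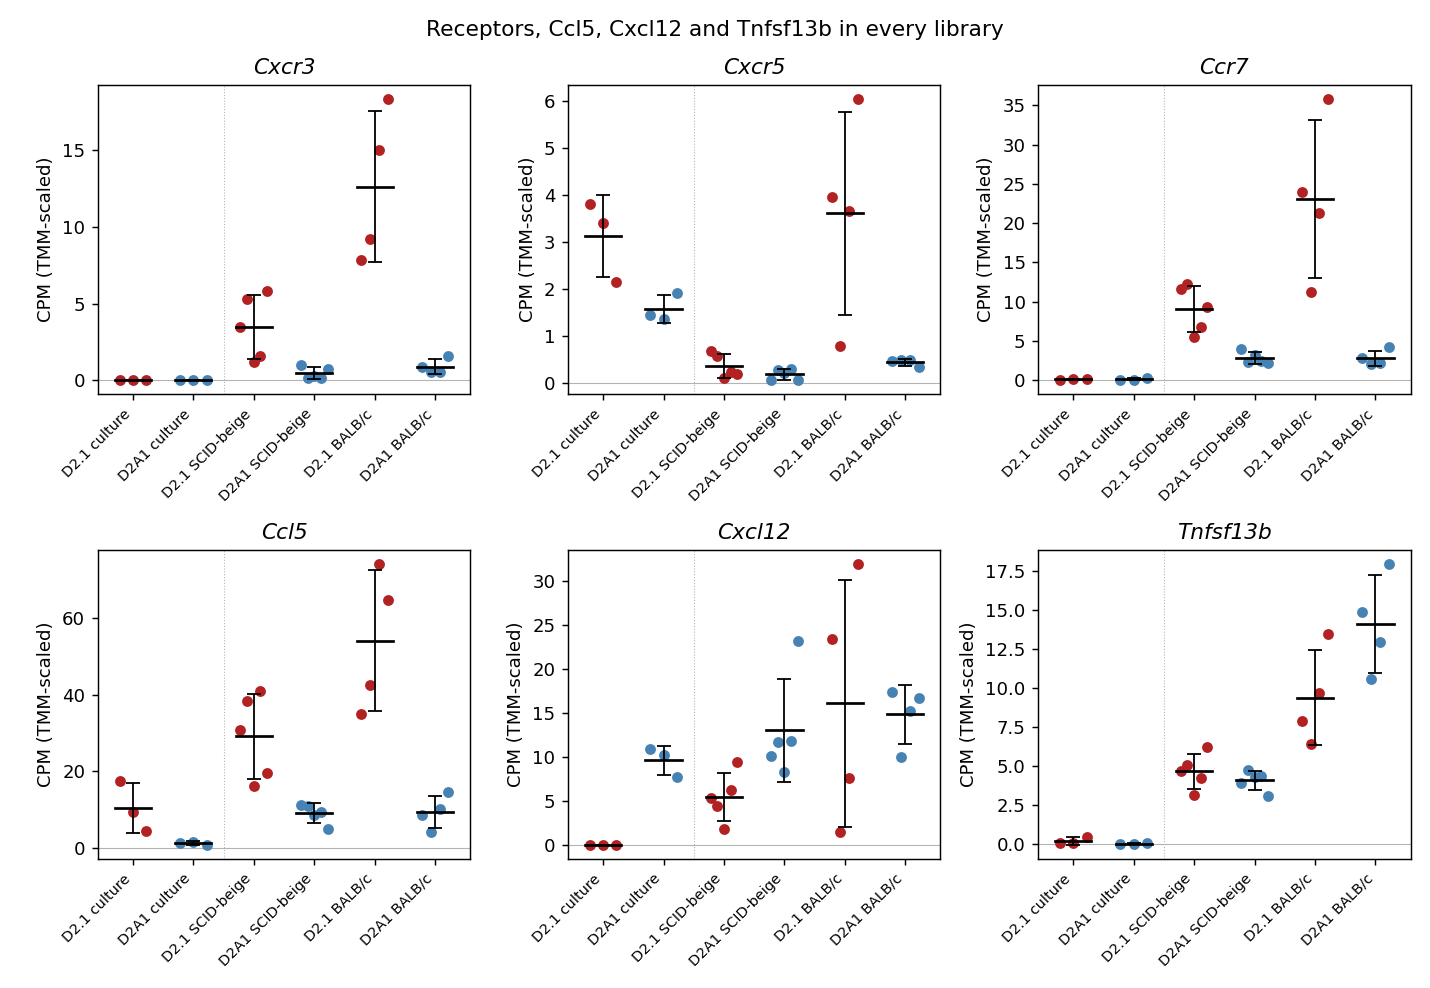
CPM of Cxcr3, Cxcr5, Ccr7, Ccl5, Cxcl12 and Tnfsf13b in each of the 24 libraries by group, D2.1 in red and D2A1 in blue, with the mean as a black line and the SD as an error bar. Cxcr3, Ccr7 and Ccl5 separate the lines in both hosts, Cxcl12 is at 0 in cultured D2.1 cells only, and Tnfsf13b is highest in D2A1 tumors of BALB/c mice.

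Cxcl12 (chromosome 6, 117168535 to 117181367, plus strand), the stromal chemokine, was lower in D2.1 than in D2A1 in culture and in SCID-beige hosts. Cultured D2A1 cells held 10.9, 10.2 and 7.77 CPM and cultured D2.1 cells had 0 counts in all 3 libraries, at least 65.9-fold lower against the floor of 3 counts a library (edgeR adjusted p = 1.7e-05). In SCID-beige hosts, D2.1 tumors held 5.28, 4.40, 1.84, 6.20 and 9.38 CPM against 10.1, 11.7, 8.29, 11.9 and 23.1 CPM in D2A1. This line difference was -1.26 (standard error 0.39, edgeR adjusted p = 0.025), with overlap, and lost its call without replicate 2 of the D2.1 tumors (adjusted p = 0.051), without replicate 5 of the D2A1 tumors (adjusted p = 0.068) and in 1 fit of all tumors (adjusted p = 0.080). In BALB/c hosts, D2.1 tumors held 23.4, 1.45, 7.65 and 32.0 CPM, a wider spread than the 17.4, 10.0, 15.2 and 16.6 CPM of D2A1. The 2 high values belong to replicates 1 and 4, the tumors with milk, skin and lymph node transcripts. The line difference was 0.13 with all tumors (standard error 0.67, edgeR adjusted p = 0.91), -0.43 with the replicate number as a block and -1.73 without replicates 1 and 4 (standard error 0.59, edgeR adjusted p = 0.072).

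Host differences of Cxcl12 were 1.61 (standard error 0.67) in D2.1 tumors, -0.25 without replicates 1 and 4, and 0.19 (standard error 0.30) in D2A1 tumors. The Cxcl12 receptor Cxcr4 did not pass the threshold between lines in either host, with log2 differences of 0.42 in BALB/c mice (standard error 0.26, edgeR adjusted p = 0.25) and -0.27 in SCID-beige mice (standard error 0.19, edgeR adjusted p = 0.32). Ackr3, the scavenging receptor of Cxcl12, was higher in cultured D2.1 than D2A1 cells by 2.27 (standard error 0.26, edgeR adjusted p = 0.00015). Fibroblast markers, a group that makes Cxcl12 in many tissues, were higher in D2.1 tumors, 6 of 6 in BALB/c and 4 of 6 in SCID-beige hosts. They include Pdgfra, which was also higher in cultured D2.1 cells by 3.20 (standard error 0.30, edgeR adjusted p = 5.5e-05). Of 6 endothelial markers, 4 were lower and 1 higher in D2.1 tumors of BALB/c hosts, and 5 lower and 1 higher in SCID-beige hosts. Of all genes tested, 32.6% and 32.1% were called in these hosts. Which cells carried Cxcl12 was not tested.

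Tnfsf13b (chromosome 8, 10006467 to 10039072, plus strand), made mainly by myeloid cells, separated the hosts in both lines. D2A1 tumors held 14.9, 10.6, 13.0 and 17.98 CPM in BALB/c and 3.92, 4.72, 4.32, 4.39 and 3.09 CPM in SCID-beige hosts. D2.1 tumors held 7.92, 6.45, 9.68 and 13.5 CPM in BALB/c and 4.67, 5.04, 3.17, 4.24 and 6.23 CPM in SCID-beige hosts. The host differences were 1.79 (standard error 0.22) in D2A1 and 1.04 (standard error 0.30) in D2.1 tumors, without overlap. The line differences did not pass the threshold, with -0.58 in BALB/c hosts (standard error 0.28, edgeR adjusted p = 0.13) and 0.19 in SCID-beige hosts (standard error 0.28, edgeR adjusted p = 0.64). With the replicate number as a block, Tnfsf13b was lower in D2.1 tumors of BALB/c hosts by -0.61 (edgeR adjusted p = 0.025), and with replicate 4 of D2.1 left out by -0.81 (edgeR adjusted p = 0.048). Of 7 macrophage markers, 1 was higher in D2.1 than in D2A1 in BALB/c and 3 in SCID-beige hosts. Of all genes tested, 32.6% and 32.1% were called in these hosts, so nothing is read from these marker counts. The 7 markers summed to 1653 to 1986 CPM in D2.1 and 1290 to 2435 CPM in D2A1 tumors of BALB/c hosts, and to 891 to 1925 and 740 to 1335 CPM in SCID-beige hosts. Of 4 further genes of the BAFF and APRIL system, 2 passed the filter on low counts in each host and 0 of these were called between lines by edgeR, adjusted or unadjusted. The receptor gene Tnfrsf13c did not pass the filter in BALB/c hosts. It had 57, 9, 36 and 98 counts in D2.1 tumors and 1, 0, 0 and 0 in D2A1 tumors there, without overlap, and was not tested.

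Over the 10 members, D2.1 had the higher level for most that were called. The members were chosen with earlier results of these data known, so the counts and medians below describe them and test no set. In BALB/c hosts 9 members were tested, 5 were higher in D2.1 (Cxcl13, Cxcr3, Cxcr5, Ccl5 and Ccr7), 0 were lower and 4 were not called, with a median log2 difference of 2.54 against -0.02 over all 14953 genes tested. There 32.6% of all genes were called. In SCID-beige hosts 8 were tested, 4 were higher in D2.1 (Cxcl9, Cxcr3, Ccl5 and Ccr7) and Cxcl12 was lower, with a median of 0.997 against 0.02 over 14355 genes, of which 32.1% were called. In culture all 4 tested members were called, 3 higher (Cxcl10, Cxcr5 and Ccl5) and Cxcl12 lower, where 44.9% of 12489 genes were called. The Cxcr5 call in culture has the limit of Bcl9l reads given above. Cxcr5 in BALB/c hosts and Cxcr3 in both hosts passed the filter on low counts through the D2.1 tumors, as given above. The other 6 were too low to test in culture. With the numbers of the replicates as a block, Cxcl10 in culture had an edgeR adjusted p of 0.0502.

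Without replicates 1 and 4 of the D2.1 tumors in BALB/c mice, the same 5 members were called between the lines there. Cxcr3 was then higher in D2.1 by 3.75 (edgeR adjusted p = 0.0011), Ccl5 by 2.63 (edgeR adjusted p = 0.0041) and Ccr7 by 2.53 (edgeR adjusted p = 0.0031). Cxcl9 differed by -0.65 (edgeR adjusted p = 0.39), Cxcl10 by 0.0057 (edgeR adjusted p = 0.99) and Tnfsf13b by -0.82 (edgeR adjusted p = 0.11). The host differences of D2.1 tumors were then 2.21 for Cxcl9, 3.55 for Cxcl13, 2.62 for Cxcr5, 1.82 for Cxcr3, 1.03 for Ccl5, 0.81 for Tnfsf13b and 0.27 for Cxcl10. That of Ccr7 was 0.86, against 1.38 with all tumors.

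**Figure D5:**
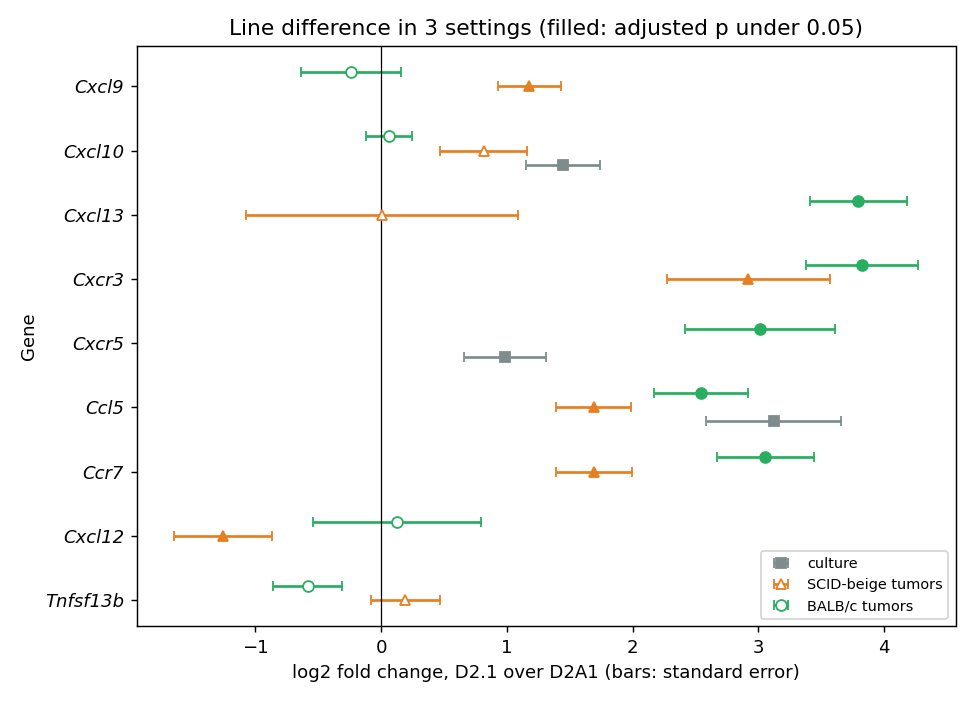
Log2 fold change of D2.1 over D2A1 with its standard error for each tested member in culture (squares), SCID-beige tumors (triangles) and BALB/c tumors (circles), where a filled symbol passed an adjusted p of 0.05. Cxcl12 in culture, where D2.1 had 0 counts, and Ccl19 are left out. Cxcr3, Ccl5 and Ccr7 lie to the right of 0 in both hosts, and Cxcl9 only in SCID-beige tumors.

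Between hosts, 3 of 9 tested members were called in D2.1 tumors (Cxcl9, Cxcl13 and Cxcr5) beside 0.891% of all genes, and 5 did not overlap beside 4.45%. Without replicates 1 and 4, Cxcr5 was not called and 2 members were. In D2A1 tumors 2 of 8 were called (Cxcl9 and Tnfsf13b) beside 1.17%, and the same 2 did not overlap beside 5.35%. Nothing is read from these counts, since this contrast chose the genes. The line-by-host interaction compares both host differences, and there edgeR called none of the 9 tested members beside 0.0187% of 16036 genes, DESeq2 called 0 members, and 5 members had an unadjusted p under 0.05 beside 8.45% of all genes. The host difference of D2.1 minus that of D2A1 was -1.42 (standard error 0.45) for Cxcl9, 3.78 (standard error 1.31) for Cxcl13, 1.35 (standard error 0.47) for Ccr7, 2.07 (standard error 0.93) for Cxcr5 and -0.78 (standard error 0.36) for Tnfsf13b. The Cxcl13 value rests on 1 tumor, and was 0.0992 without replicate 4 of the D2A1 tumors in SCID-beige mice.

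Ordered by FPKM within the tumor table, which corrects for gene length, Ccl5 led in D2.1 tumors and Cxcl10 in D2A1 tumors. In D2.1 tumors of BALB/c hosts the means ran from Ccl5 at 88.8 ± 29.6 FPKM (SD, n = 4) through Cxcl13 at 56.7 ± 23.4, Cxcl10 at 43.0 ± 6.67 and Cxcl9 at 34.5 ± 13.5, and the ranges of these 4 neighbours overlapped. Ccr7 followed at 11.5 ± 4.83 FPKM, below the whole range of Cxcl9, and Cxcr5 at 1.97 ± 1.15 FPKM was the lowest member above 0. In D2A1 tumors of BALB/c hosts Cxcl10 at 43.6 ± 8.82 and Cxcl9 at 43.4 ± 23.2 FPKM differed by less than their spread, and Cxcl13 stood at 4.30 ± 1.46 FPKM. In SCID-beige hosts Cxcl9 lay below Cxcl10 without overlap in both lines, at 5.70 ± 1.23 against 34.8 ± 19.7 FPKM in D2.1 and 2.61 ± 0.553 against 20.5 ± 8.06 FPKM in D2A1 (SD, n = 5).

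Pathway genes around the members were read from lists of 4 to 11 genes, whose counts stand beside the 32.6% of all genes called between the lines in BALB/c hosts, 32.1% in SCID-beige hosts and 44.9% in culture. A list's count near that share is not a result about the list, and genes with few counts in D2A1 tumors could enter the test through D2.1 alone. Of 9 genes of the lymphotoxin and noncanonical NF-kB pathway, which induces Cxcl13 in lymphoid stroma, 4 were higher in D2.1 tumors and 0 lower in BALB/c hosts, and 4 of 8 tested in SCID-beige hosts. Ltb, a lymphotoxin chain, was at 56.2 ± 23.8 against 6.04 ± 3.07 CPM in BALB/c hosts (SD, n = 4), a log2 difference of 3.22 (standard error 0.49, edgeR adjusted p = 0.00068). Map3k14, the kinase NIK of this pathway, was higher by 1.64 in BALB/c hosts, by 1.61 in SCID-beige hosts and by 1.43 in culture, where all 6 tested genes of the list were higher in D2.1.

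Of 8 interferon-gamma pathway genes, 3 were higher and 1 lower in D2.1 tumors of BALB/c hosts, 5 of 7 tested were higher in SCID-beige hosts, and 4 were higher and 1 lower of 6 tested in culture. Ifngr1, a receptor chain for interferon-gamma, was higher in D2.1 by 1.62, 1.80 and 1.70 in those settings. Ifng itself had 9 to 47 counts in D2.1 and 1 to 19 in D2A1 tumors of BALB/c hosts, 1 to 14 in D2.1 tumors of SCID-beige hosts, and 0 in every D2A1 tumor of SCID-beige hosts.

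Of 11 further chemokines and receptors of effector T and NK cells, 3 were higher and 2 lower in D2.1 tumors of BALB/c hosts, and 4 higher and 1 lower in SCID-beige hosts. Cx3cl1, a membrane-bound chemokine for NK and T cells, was at 1135 ± 338 against 109 ± 30.2 CPM in BALB/c hosts and was higher in D2.1 by 3.38 (standard error 0.27, edgeR adjusted p = 1e-05), and in culture by 2.48 (standard error 0.14, edgeR adjusted p = 3.1e-06). Xcl1, an NK and T cell chemokine for cross-presenting dendritic cells, was higher by 4.27 and 4.48 in BALB/c and SCID-beige hosts. Cxcr6, the receptor of Cxcl16, ran against these in SCID-beige hosts, at 1.96 ± 1.68 CPM in D2.1 and 22.9 ± 4.62 CPM in D2A1 tumors (SD, n = 5), a log2 difference of -3.54 (standard error 0.52, edgeR adjusted p = 0.00018). Cxcl11, the remaining Cxcr3 ligand, differed by -0.53 (standard error 0.40, edgeR adjusted p = 0.34) and 0.01 (standard error 0.47, edgeR adjusted p = 0.99) between lines in BALB/c and SCID-beige hosts.

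Of 10 chemokines and receptors tied to regulatory and type 2 T cells, 4 of 8 tested were higher in D2.1 tumors of BALB/c hosts and 3 of 5 in SCID-beige hosts, with 0 lower in either. Ccl22, which attracts regulatory T cells through Ccr4, was higher by 3.40 (standard error 0.53, edgeR adjusted p = 0.00086) and 2.06 (standard error 0.48, edgeR adjusted p = 0.005). In culture Ccl17, another ligand of Ccr4, was lower in D2.1, with a log2 difference of -0.81 (standard error 0.23, edgeR adjusted p = 0.018).

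Variation between tumors of the same group was compared between ligands and receptors. Over the 18 tumors, the deviations of log2 CPM from the group means had a Pearson r of 0.306 for Cxcl9 with Cxcr3, 0.381 for Cxcl13 with Cxcr5, 0.583 for Cxcl9 with Cxcl10 and 0.599 for Cxcl12 with Cxcr4. Among 12698 protein-coding genes, those closest to Cxcl9 included Il18bp (r = 0.857), Rtl6 (0.857), Vegfc (0.805) and Tgtp2 (0.8). Il18bp and Tgtp2 are interferon-induced genes. Those closest to Cxcl13 were Col5a3 (r = 0.813), Col16a1 (0.77), Saa3 (0.746), Lrrc8e (0.745) and Fam83f (0.744), the first and the next being collagens. All these correlations describe 18 tumors that share groups and library preparation, and carry no test. Those of Cxcl13 include replicate 4 of the D2A1 tumors in SCID-beige mice, far from its group mean. It held 19.5 CPM against 0 to 0.625 CPM in the rest of its group, and the correlations were not computed without it.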

How the data were processed

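Per the labels, total RNA of cultured cells and of individually frozen tumors was sequenced. STAR and the mm10 build are named in the submitters' processing notes, while the counter, annotation and strand setting are not given in the sources used here. The authors deposited whole-number read counts per Ensembl gene and FPKM values made from them, in 1 table pair for the 18 tumors and another for the 6 cultures. In each table the deposited FPKM equalled counts divided by 1 gene length and the library total in 100% of genes checked (relative tolerance 1e-06), and the lengths differed between the tables.

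Symbols and coordinates came from the GENCODE annotation of GRCm38, and identifiers absent from it held 0.0446% of tumor and 0.097% of culture counts. Counts were filtered with filterByExpr, scaled by TMM and fitted with edgeR 4.0.16 (quasi-likelihood test, R 4.3.3) over all genes that passed, with only the groups compared, and p-values were adjusted by Benjamini-Hochberg with a threshold of 0.05. The interaction used all 18 tumors. Alternatives were DESeq2 1.42.0, its size factors, other filters on low counts, a replicate block, 1 fit of all tumors and leaving out each library. The omission of replicates 1 and 4 of the D2.1 tumors in BALB/c mice was chosen after seeing the data. The steps were tested on simulated data with known changes.

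The 10 members, the 18 gene lists and the tests were chosen with earlier results of these data known. All members were named, and of a list at most 4 called genes per comparison, those with the largest change. Cxcl11, Cxcr4, Cx3cr1, Zbtb46, Ifng, Glycam1, Ccl21a, Tnfrsf13c and the genes that overlap or copy a member were named outside that rule, after their values were seen. The 5 protein-coding genes most like Cxcl9 and Cxcl13 had a mean of at least 1 CPM. Some genes that these rules name are not reported here. Replicate numbers were read as pairs where same-numbered samples deviated together, with every correlation over 0.1: 0.184 to 0.491 in culture and 0.101 to 0.493 between lines in BALB/c hosts. The same number was often not the best match. For D2.1 samples it was so only for replicate 2 in BALB/c hosts, and for replicates 2 and 3 in culture. The pairing in BALB/c hosts, where each tumor came from 1 animal, is therefore uncertain. No 2 of the 38 pairs of replicates agreed within counting noise, their chi-square values being 4.96 to 117 times the degrees of freedom. Counting floors cover counting error only.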

Additional observations from a re-analysis of the deposited data

Results flagged for a closer look

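Of 36 sets of 1 gene in 1 tumor group, 4 held a tumor far from the others by Dixon's 95% critical value, where chance gives about 1 in 20. Cxcl10 stood at 91.0 CPM in replicate 4 of the D2.1 tumors in SCID-beige mice, where the other 4 tumors held 27.6 to 39.3 CPM. Cxcl13 stood at 19.5 CPM in replicate 4 of the D2A1 tumors in SCID-beige mice, above 0 to 0.625 CPM in the others, and at 7.10 CPM in the BALB/c-hosted D2A1 tumor 4, above 3.65 to 4.22 CPM. Cxcl12 stood at 23.1 CPM in replicate 5 of the D2A1 tumors in SCID-beige mice, above 8.29 to 11.9 CPM. No reason for these values was tested.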

How the results depend on the processing

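The line comparisons were the steadier ones: their counts of called genes stayed within 1.5 times under every alternative run. In D2.1 tumors the host comparison called 133 genes, but 590 by DESeq2 (6 members called), 275 without a filter (5 members), 261 in 1 fit of all tumors, 14 with a replicate block, 11 without replicates 1 and 4 of the BALB/c tumors, and 26 to 314 when 1 tumor was left out (2 to 4 members), 26 without replicate 1 and 314 without replicate 2 of the BALB/c tumors. In D2A1 tumors it called 170 genes, but 518 by DESeq2, 0 with a replicate block (0 members) and 27 to 172 when 1 tumor was left out (2 to 3 members), 27 without BALB/c tumor 4. The interaction called 3 genes, but 92 by DESeq2, 6 with DESeq2's size factors, 7 without a filter, 0 without replicates 1 and 4 and 0 to 12 when 1 tumor was left out. The host groups were read as sharing only a number, since correlations of same-numbered deviations were mostly below 0. The lines in SCID-beige hosts were read likewise, since replicate 4 had a correlation of -0.16. Replicates 1, 2 and 5 there matched their own number best. Where numbers were read as pairs, the replicate block changed the calls of Cxcl10 in culture and Tnfsf13b in BALB/c hosts and no other member call. The Tnfsf13b call with the block rests on the uncertain pairing in BALB/c hosts.

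Among the line differences in BALB/c hosts, Cxcl12 turned to -0.43 with a replicate block and to -1.73 without replicates 1 and 4 (its interaction to -0.44), and ran from -0.42 to 0.50 when 1 tumor was left out, Cxcl10 from -0.0544 to 0.15 and Cxcl9 from -0.51 to 0.0279. In SCID-beige hosts Cxcl13 ran from -0.34 to 3.69. None of these had passed the threshold, and the cause was not tested. Leaving out 1 culture replicate ended the call of Cxcr5 in culture in 4 of 6 fits.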
